A study of Arabidopsis thaliana with 12 samples.

Results

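The alternative oxidases and the alternative NAD(P)H dehydrogenases of plant mitochondria were followed as 10 genes, out of 33610 gene IDs, in inflorescence mRNA of Arabidopsis thaliana. They were taken by gene ID and are AOX1A (AT3G22370), AOX1B (AT3G22360), AOX1C (AT3G27620), AOX1D (AT1G32350), AOX2 (AT5G64210), NDA1 (AT1G07180), NDA2 (AT2G29990), NDB1 (AT4G28220), NDB2 (AT4G05020) and NDB4 (AT2G20800). All 10 IDs carried these symbols in the reference. The family was chosen by its FPKM levels in these same libraries, by genotype and by the sets named in the file headers, so the levels of its members are descriptions, and the counts of members that passed a fit over all genes, by genotype or header set, support nothing.

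The study compared wild-type plants (WT) of the Columbia accession with plants of the same accession that carry amiR-SEAP1, an engineered small RNA directed against SEAP1, to ask how miRNAs and mRNAs accumulate when that gene is targeted. Plants of both genotypes grew untreated at 22 °C with 16 h of light and 8 h of dark, and flower inflorescences were taken. Each genotype had 4 mRNA libraries, with values in FPKM, a read level scaled to transcript length and library size, which allow levels of genes of different length to be set side by side. Neither the promoter of the transgene nor the number of plants per library was found in the labels.

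The names in the file headers divide the libraries into 2 sets, FLW for replicates 1 and 2 and AI for replicates 3 and 4 of both genotypes. The amiR-SEAP1 libraries are headed R15 in the FLW set and R155 in the AI set, and whether these are the same line is not stated. The libraries of a genotype within a set differed by a median of 1.35% to 1.51% (coefficient of variation over the 3886 genes with at least 30 FPKM in every library), against 11.5% in WT and 8.89% in amiR-SEAP1 between the sets. They were counted as 1 sample, so each mean ± SD below is over n = 2 sets. The FPKM of a library added up to 680667 to 715611, and the relative depths read from the lowest values lay within a factor of 1.17. All 8 floral identity genes were above 0 in every library, from LFY at 1.20 ± 0.161 FPKM in WT to PI at 188 ± 6.09 FPKM. Being above 0 is a weak check of the tissue, since only 6883 to 7316 of the 33610 gene IDs were at 0 in a library. SEAP1 matched no symbol or synonym in the reference, so its own mRNA was not analysed here.

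In mitochondria the cytochrome pathway passes electrons from complex I or II through ubiquinone, complex III and cytochrome c to complex IV, and pumps protons on the way. Alternative oxidases take electrons from ubiquinol straight to oxygen, and alternative NAD(P)H dehydrogenases feed electrons into ubiquinone without complex I. Neither enzyme pumps protons, so a chain built of them oxidises substrate with little ATP made. AOX1A is the best known stress-responsive member in Arabidopsis and a common reporter of signals from mitochondria to the nucleus.

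Among the alternative oxidases, AOX1A mRNA was about 3-fold as abundant in amiR-SEAP1 as in WT, AOX1B mRNA was lower, and AOX1C showed no common direction. AOX1A lay at 13.97, 14.6, 15.4 and 16.3 FPKM in WT replicates 1 to 4 while amiR-SEAP1 replicates 1 to 4 had 41.4, 41.2, 50.6 and 51.9 FPKM. The genotypes did not overlap, and within amiR-SEAP1 the AI libraries lay above the FLW libraries. The means were 15.1 ± 1.06 FPKM in WT and 46.3 ± 7.04 FPKM in amiR-SEAP1 (SD, n = 2), a ratio of 3.07. Within the sets the ratio was 2.89 in FLW and 3.24 in AI. As log2(FPKM + 1), a scale that shrinks differences of weakly expressed genes, the difference was 1.55 ± 0.14 (SE). Of all tested genes, 0.429% had a ratio of at least 2.5, 3.32% one of at least 1.5, and 4.85% were lower by at least 1.5-fold. In bulk tissue such as this, fewer cells of a type and less RNA per cell cannot be told apart.

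AOX1B is the direct neighbour of AOX1A in the reference, and its mRNA differed the other way. It lay at 7.70, 9.29, 9.41 and 8.24 FPKM in WT and at 5.27, 4.62, 6.12 and 6.01 FPKM in amiR-SEAP1. Every amiR-SEAP1 library lay below every WT library. The means were 8.66 ± 0.236 FPKM in WT and 5.51 ± 0.791 FPKM in amiR-SEAP1 (ratio 0.636, log2 difference -0.57 ± 0.28, SE). The ratio of AOX1A to AOX1B was 1.58 to 1.97 in the WT libraries and 7.86 to 8.92 in the amiR-SEAP1 libraries. No source used here says how reads that suit both paralogs were counted, so the values of AOX1B are uncertain to that extent.

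AOX1C, a further member of the AOX1 group, lay at 3.72, 4.41, 2.77 and 2.52 FPKM in WT and at 2.98, 3.14, 3.25 and 3.23 FPKM in amiR-SEAP1. The genotypes overlapped, since WT was high in the FLW set and low in the AI set while the amiR-SEAP1 libraries stayed close together. The log2 difference was -0.32 in FLW and 0.22 in AI, and -0.05 ± 0.25 (SE) over both.

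AOX1D and AOX2 were close to the lower end of detection in every library. AOX1D, which is known to be induced by some stresses in leaves, lay between 0.065 and 0.197 FPKM in WT and between 0 and 0.114 FPKM in amiR-SEAP1. AOX2, known mainly from seeds, was listed at 0 in 5 of the 8 libraries and reached 0.048 FPKM in WT and 0.143 FPKM in amiR-SEAP1. Neither reached the mean of 1 FPKM that was set for testing, so whether they changed was not tested.

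**Figure D1:**
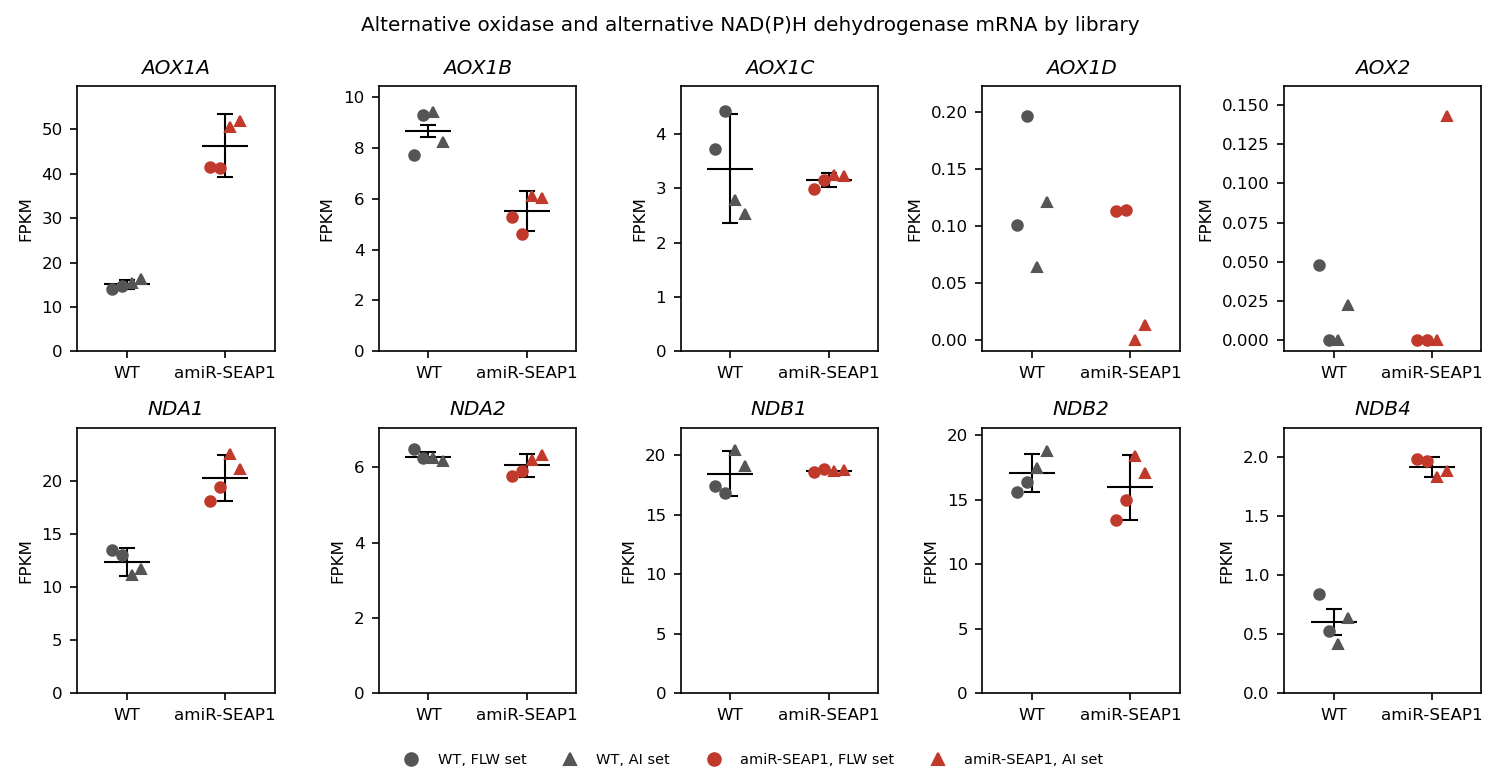
FPKM (y axis, from 0 for genes above 1 FPKM) of each of the 10 genes in every library, with WT in grey, amiR-SEAP1 in red, circles for the FLW set and triangles for the AI set; horizontal lines are means of the 2 set means and error bars are SD (n = 2). AOX1A, NDA1 and NDB4 lie above and AOX1B below WT with no overlap, and the other 6 genes overlap; AOX1D and AOX2 have points only.

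The alternative oxidases as a sum were about 2-fold as abundant in amiR-SEAP1, with AOX1A higher by more than the whole difference and AOX1B lower. Their summed level was 25.5, 28.5, 27.6 and 27.2 FPKM in WT replicates 1 to 4 and 49.8, 49.1, 60.0 and 61.3 FPKM in amiR-SEAP1. AOX1A made up 51.3% to 59.8% of the sum in the WT libraries and 83.2% to 84.7% in the amiR-SEAP1 libraries. The share of AOX1B was 30.2% to 34.1% in WT and 9.41% to 10.6% in amiR-SEAP1, and that of AOX1C 9.28% to 15.5% and 5.26% to 6.4%.

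The internal dehydrogenases face the mitochondrial matrix, where they oxidise NADH. Of the pair, NDA1, whose mRNA is known to respond to light, lay higher in amiR-SEAP1, and NDA2 was near its WT level. NDA1 lay at 13.5, 13.1, 11.2 and 11.7 FPKM in WT and at 18.1, 19.4, 22.6 and 21.1 FPKM in amiR-SEAP1. The genotypes did not overlap, and the order of the sets was opposite in them, with FLW above AI in WT and AI above FLW in amiR-SEAP1. The means were 12.4 ± 1.32 and 20.3 ± 2.18 FPKM (SD, n = 2), a ratio of 1.64, with 1.41 in FLW and 1.91 in AI. The log2 difference was 0.67 ± 0.16 (SE).

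NDA2 lay between 6.16 and 6.48 FPKM in WT and between 5.76 and 6.32 FPKM in amiR-SEAP1, and the genotypes overlapped (log2 difference -0.05 ± 0.14, SE). The ratio of NDA1 to NDA2 was accordingly 1.79 to 2.09 in the WT libraries and 3.15 to 3.64 in the amiR-SEAP1 libraries.

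The external dehydrogenases face the space between the membranes, where NDB1 oxidises NADPH and NDB2 and NDB4 oxidise NADH. Of these 3, NDB4 differed without overlap between the genotypes, and from a low level. It lay at 0.845, 0.527, 0.419 and 0.639 FPKM in WT and at 1.99, 1.96, 1.83 and 1.88 FPKM in amiR-SEAP1. The means were 0.607 ± 0.111 and 1.92 ± 0.083 FPKM (SD, n = 2), a ratio of 3.16, with 2.88 in FLW and 3.52 in AI. On the log2(FPKM + 1) scale the difference was 0.87 ± 0.32 (SE), and with a pseudocount of 0.1 it was 1.55. NDB4 passed the filter of 1 FPKM through the amiR-SEAP1 libraries, since its WT mean is below it.

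NDB2, whose mRNA is known to be induced together with AOX1A under several stresses in Arabidopsis, did not follow AOX1A here. It lay at 15.6, 16.4, 17.4 and 18.8 FPKM in WT and at 13.4, 14.96, 18.4 and 17.1 FPKM in amiR-SEAP1. The genotypes overlapped, and in both of them the FLW libraries lay below the AI libraries. The log2 difference between the genotypes was -0.10 ± 0.20 (SE). NDB1 lay between 16.8 and 20.5 FPKM in WT and between 18.6 and 18.8 FPKM in amiR-SEAP1 (log2 difference 0.02 ± 0.13, SE). The reference shows NDB1 overlapping AT4G28230, and whether strand was used in counting is unknown, so reads of the pair may be mixed.

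Summed over the 5 dehydrogenases, the level was 53.1 to 56.4 FPKM in WT and 57.9 to 67.6 FPKM in amiR-SEAP1. The external ones summed to 36.1 ± 3.25 FPKM in WT and 36.6 ± 2.44 FPKM in amiR-SEAP1, and the internal pair to 18.6 ± 1.43 and 26.3 ± 2.48 FPKM (SD, n = 2). The difference between the genotypes in the dehydrogenase sum thus lay in NDA1. The alternative oxidase sum was 0.474 to 0.538 of the dehydrogenase sum in WT and 0.804 to 0.940 of it in amiR-SEAP1.

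**Figure D2:**
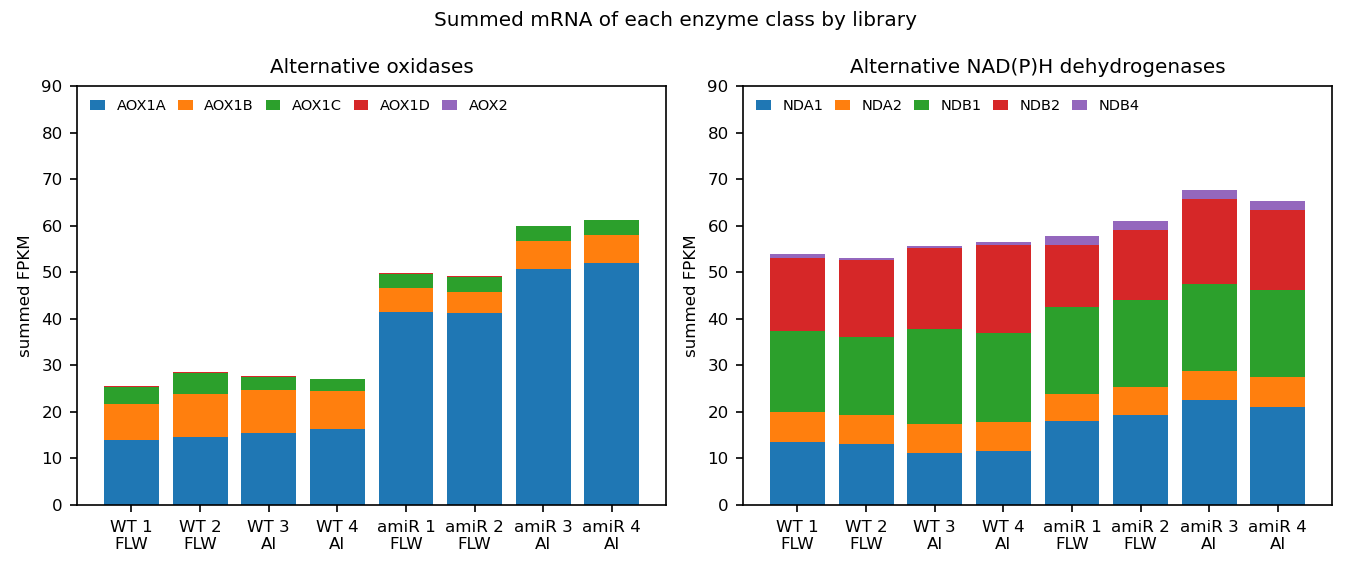
Stacked bars of FPKM (y axis, from 0) for the 5 alternative oxidases (left) and the 5 alternative NAD(P)H dehydrogenases (right) in each library (x axis, genotype with replicate number and header set). The oxidase sum lies at 25.5 to 28.5 FPKM in WT and 49.1 to 61.3 FPKM in amiR-SEAP1, and the blue AOX1A segment carries the difference.

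The order of the levels differed between the genotypes. In WT the most abundant were NDB1, NDB2 and AOX1A, whose library ranges overlapped from one to the next, followed by NDA1, AOX1B, NDA2, AOX1C, NDB4, AOX1D and AOX2, each apart from the one before. In amiR-SEAP1 AOX1A came first and stood apart from NDA1 in second place. NDA1 and NDB1 overlapped there, NDB2 followed, NDA2 and AOX1B overlapped, and AOX1C, NDB4, AOX1D and AOX2 came last, with AOX1D and AOX2 overlapping. By its mean over the 8 libraries AOX1A stood at percentile 76.9 of the tested genes, NDB1 at 61.0, AOX1C at 15.2 and NDB4 at 2.58.

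Of the 8 members that were tested among 20743 genes averaging 1 FPKM or more, 3 lay higher and 1 lower in amiR-SEAP1 without any overlap between the libraries, where 24.4% of all tested genes did so, 14.8% upward and 9.56% downward. In limma, allowing for correlated libraries within a genotype and set, AOX1A alone of the 8 passed an FDR of 0.05 upward, where 0.313% of all genes passed, 0.231% upward and 0.082% downward. With every library taken as independent, AOX1A, NDA1 and NDB4 passed upward and AOX1B downward, where 7.5% and 4.7% of all genes did. The same 4 members passed with a term for the header set, where 1543 of all genes rose and 1575 fell. They also passed with the replicate number as a block, where 2852 rose and 2306 fell. On simulated data these 3 fits made far more false calls than their FDR allows, and the fit with correlated libraries also made more. Those data gave every gene the same amount of noise and held no set difference shared by the genotypes, so they cannot show how these fits do here. With the mean of each pair of libraries as 1 value, with or without a term for the set, 0 genes passed in limma, AOX1A included (without the term, an unadjusted p under 0.05 was reached by 692 higher and 558 lower genes). Because the family was chosen with this contrast known, these counts are no support for it.

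**Figure D3:**
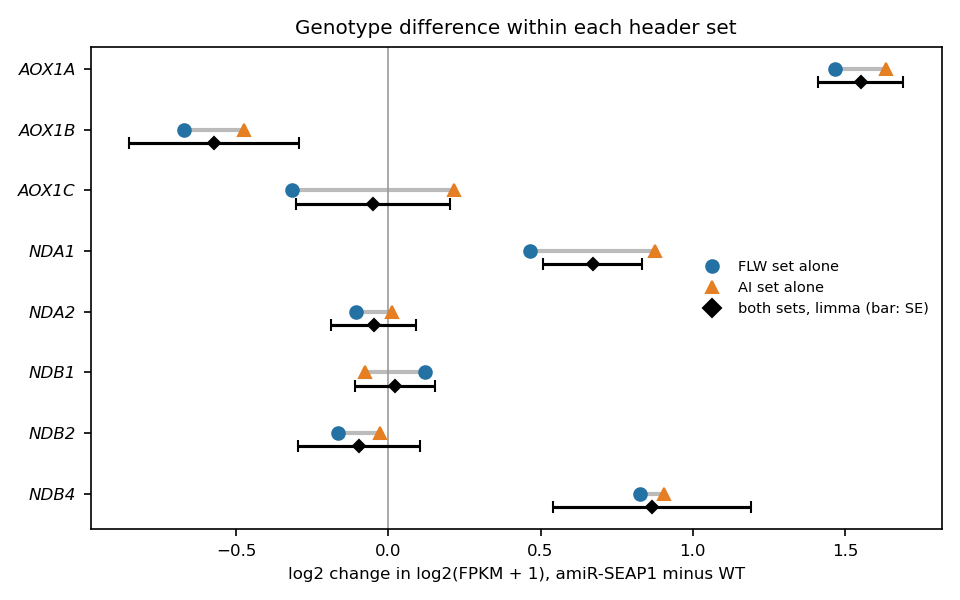
Difference in log2(FPKM + 1) between amiR-SEAP1 and WT (x axis) for the 8 tested genes, in the FLW set (blue circles), the AI set (orange triangles) and over both sets by limma (black diamonds, bars are SE). AOX1A, NDA1 and NDB4 lie right of 0 and AOX1B left of 0 in both sets, while AOX1C and NDB1 lie on opposite sides of 0 in the sets.

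The header sets were also compared for these genes. Within amiR-SEAP1 the sets also differ in the header name, R15 or R155, so set and a possible line difference cannot be told apart there. The limma term for the set pools both genotypes and shares this limit. AOX1A lay higher in AI than in FLW by 0.14 in WT and 0.30 in amiR-SEAP1 (log2), and NDB2 by 0.17 and 0.31. NDA1 went from FLW to AI by -0.20 in WT and 0.21 in amiR-SEAP1, and AOX1C by -0.47 and 0.06. In limma with genotype as a second term, 0 of the 8 members passed between the sets, where 25.2% of all genes did (11.8% higher and 13.5% lower in AI). The header sets were part of how the family was chosen, so nothing is read from that count. With every library as independent this test called 4646 genes higher and 5451 lower in AI, against 2444 and 2791 here.

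A further 73 nuclear genes in 6 lists, with no member of the family, were compared between the genotypes: complexes I to IV with cytochrome c, uncoupling and dicarboxylate carriers, and a list of other alternative dehydrogenases, the plastid oxidase and AOX thioredoxins. Of 69 tested, 0 passed limma's test in either direction, with the libraries of a pair correlated or independent (1 gene, lower, had an unadjusted p under 0.05). With a term for the set 2 fell, where 1575 of all 20743 genes did. With the replicate number as a block 2 rose and 9 fell, where 2852 and 2306 of all genes did. Their log2 differences ran from -0.49 to 0.37 with a median of -0.10, against a median of 0.03 over all tested genes, and 14 of the 69 lay above 0, against 11432 of all 20743. The median was -0.036 in FLW and -0.133 in AI, against -0.003 and 0.058 over all tested genes. Without overlap between the genotypes, 6 of the 69 lay lower and 0 higher, where 9.56% and 14.8% of all genes did.

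By complex, the medians were -0.07 for 23 tested genes of complex I, -0.16 for 10 of complex II, -0.05 for 17 of complex III with cytochrome c, and -0.12 for 9 of complex IV. The genes with the smallest p per list were AT5G47890 (-0.17 ± 0.13, SE), AT3G03070 (-0.13 ± 0.10) and AT1G16700 (-0.24 ± 0.19) for complex I. For complex II they were SDH1-1 (-0.26 ± 0.12), SDH3-1 (-0.17 ± 0.15) and SDH3-2 (-0.15 ± 0.14), subunits of succinate dehydrogenase. For complex III they were AT1G51980 (-0.17 ± 0.10), AT1G15120 (-0.18 ± 0.13) and AT5G25450 (0.37 ± 0.28), and for complex IV AT3G15640 (-0.15 ± 0.09), AT1G80230 (-0.10 ± 0.10) and COX6B (-0.12 ± 0.13). None of these passed. AT5G25450 lay at only 0.835 FPKM in WT and 1.36 FPKM in amiR-SEAP1, so it was tested only through the amiR-SEAP1 libraries.

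The remaining 2 of these 6 lists hold the nearest relatives of the family and the carriers. NDB3, the remaining external dehydrogenase, lay at 8.05 ± 1.32 FPKM in WT and 6.23 ± 2.2 FPKM in amiR-SEAP1 (log2 difference -0.35 ± 0.23, SE). NDC1, which is found mainly in chloroplasts, lay at 21.1 ± 1.5 and 18.7 ± 2.53 FPKM, and TO1, a mitochondrial thioredoxin gene, differed by 0.10 ± 0.14. The dicarboxylate carrier gene UCP5 lay at 39.9 ± 15.6 and 27.2 ± 3.57 FPKM (-0.49 ± 0.21, SE, limma adjusted p = 0.492), the uncoupling protein gene PUMP1 differed by -0.12 ± 0.13 and DIC2 by -0.23 ± 0.24. None of these passed. DIC2 differed in opposite directions in the header sets, by 0.19 in FLW and -0.64 in AI (log2). NDC1 differed by 0.03 in FLW and -0.37 in AI. For both genes the difference between the sets in this was not tested.

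Set against the 2 cytochrome c genes, whose product carries electrons in the competing pathway, the alternative oxidase sum was 9.30% to 13.2% of their sum in the WT libraries and 22.3% to 25.4% in the amiR-SEAP1 libraries. The cytochrome c sum itself overlapped between the genotypes, at 211 to 292 FPKM in WT and 193 to 273 FPKM in amiR-SEAP1. The sum over the complex IV list was 716 to 883 FPKM in WT and 684 to 788 FPKM in amiR-SEAP1, and overlapped as well.

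The respiratory genes were also compared between the header sets, with the same limit for amiR-SEAP1. Of the 69 tested, 38 were higher and 4 lower in AI, where 11.8% and 13.5% of all genes were, with a median of 0.25 (log2) against -0.02 over all genes. Of complex I genes 13 of 23 were higher in AI and 1 lower, of complex III with cytochrome c 9 of 17, and of complex IV 5 of 9. Complex II went both ways, with 5 of 10 higher and 3 lower in AI. The median of the 8 tested alternative oxidase and dehydrogenase genes was 0.06.

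**Figure D4:**
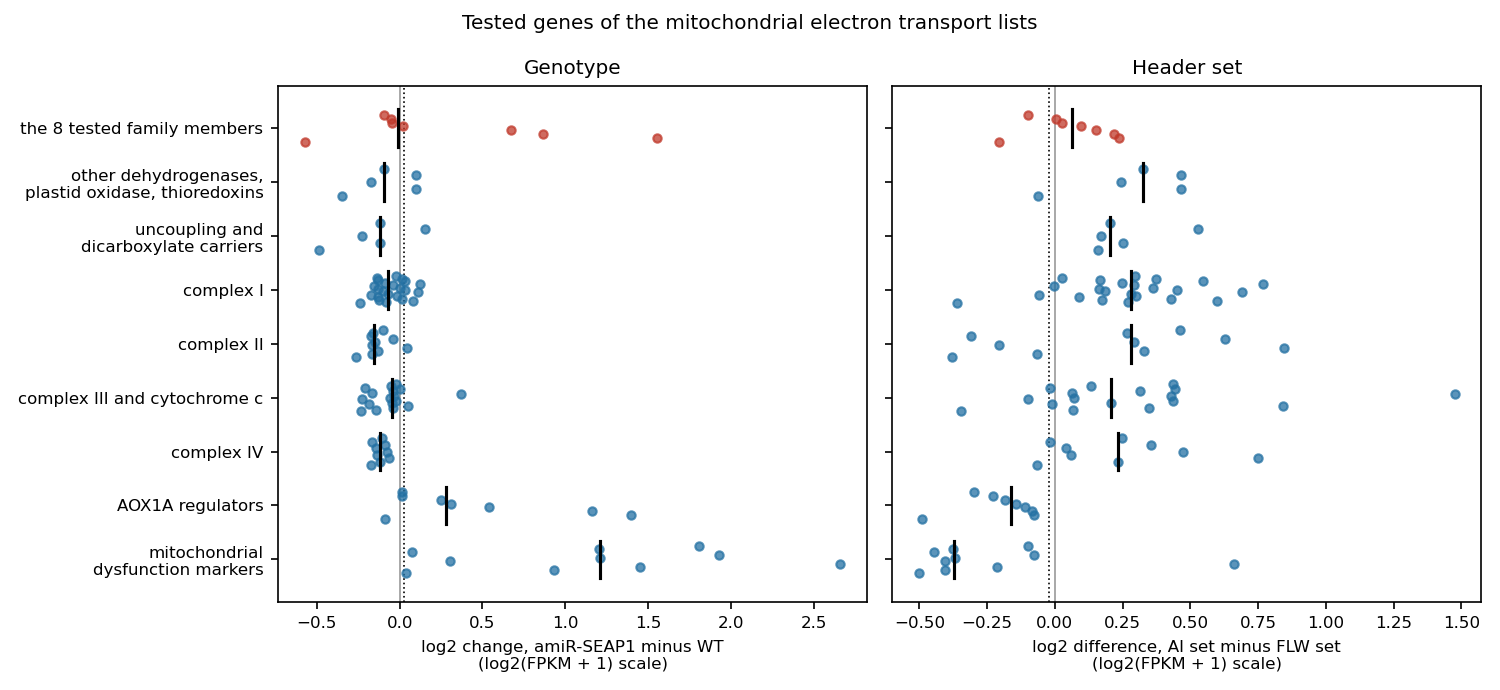
Each point is a tested gene, placed by its log2(FPKM + 1) difference between amiR-SEAP1 and WT (left) or between the AI and FLW sets (right); black bars are list medians, the dotted line is the median of all tested genes, and the family members are in red. The respiratory complexes sit close to 0 by genotype (medians -0.16 to -0.05) and to the right of 0 by header set (medians 0.21 to 0.28).

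Known regulators of AOX1A were examined as a list of 10 genes, 8 of them tested. NAC13 (ANAC013), a membrane-bound transcription factor that binds the AOX1A promoter, and whose gene overlaps AT1G32880, rose from 8.89 ± 1.38 FPKM in WT to 21.1 ± 1.45 FPKM in amiR-SEAP1 (log2 difference 1.16 ± 0.18, SE, limma adjusted p = 0.0331). It was not called when any 1 of the 8 libraries was left out (adjusted p = 0.0541 to 0.0858). NAC017, which acts upstream of NAC13 and is itself controlled by release from the membrane, lay at 31.4 ± 1.28 and 31.7 ± 1.43 FPKM. RCD1, whose protein restrains both NAC factors, lay at 72.2 ± 5.41 FPKM in WT and 106 ± 11.3 FPKM in amiR-SEAP1 (0.54 ± 0.11, SE, limma adjusted p = 0.109). MYB29, which acts on AOX1A as a negative regulator and on aliphatic glucosinolate genes as an activator, lay at 0.913 ± 0.397 and 4.29 ± 2.56 FPKM (1.40 ± 0.41, SE, limma adjusted p = 0.248). The WT mean of MYB29 is below 1 FPKM, so it was tested only through the amiR-SEAP1 libraries. NAC13 was thus the 1 regulator called with correlated libraries, and 0 fell. The background of calls in that fit is that given above, 0.231% of all genes upward. Over the alternatives NAC13 was called in 7 of 18. With independent libraries, the set term or the replicate block 3 regulators were called higher, where 1556, 1543 and 2852 of all genes were. With pair means or a filter at 5 FPKM the count was 0.

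Markers of mitochondrial dysfunction, genes known to be induced with AOX1A through the NAC factors, mostly lay higher in amiR-SEAP1. Of 13 genes, 10 were tested and 4 rose, with 0 falling, where 0.231% of all genes rose, and the median of the 10 was 1.21 (log2). With the set term, the replicate block or independent libraries 7 were called higher, where 1543, 2852 and 1556 of all 20743 genes were. With a pseudocount of 0.1 it was 2, with a filter at 5 FPKM 1, and with pair means 0. The list was drawn up with increases of some of its members in these libraries already known, so its direction is no independent evidence. CRF6, a cytokinin response factor gene, rose from 12.2 ± 1.37 to 34.9 ± 0.271 FPKM (1.45 ± 0.12, SE, limma adjusted p = 0.00164). AT2G04050 rose from 0.420 ± 0.512 to 7.69 ± 0.604 FPKM (2.66 ± 0.28, limma adjusted p = 0.00531). AT5G51440 rose from 0.817 ± 0.614 to 5.19 ± 0.150 FPKM (1.81 ± 0.26, limma adjusted p = 0.0324), and AT2G21640 from 7.22 ± 1.19 to 29.97 ± 2.19 FPKM (1.93 ± 0.29, limma adjusted p = 0.0331). AT2G04050 and AT5G51440 have WT means below 1 FPKM and were tested only through the amiR-SEAP1 libraries. Both lost their call with a pseudocount of 0.1, and the log2 difference of AT2G04050 ran from 2.63 to 4.40 over the alternatives. CRF6 and AT2G04050 passed without any 1 library, whereas AT5G51440 passed in 0 of these 8 fits and AT2G21640 without 3 of the 8 (WT replicates 1, 3 and 4). BCS1 (OM66), an outer mitochondrial membrane protein gene and a further marker, lay at 2.66 ± 0.241 and 2.86 ± 0.546 FPKM and was not called.

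The genes nearest to AOX1A in profile were sought among 15973 others with a mean of at least 5 FPKM, by the root mean square distance of log2(FPKM + 1), centred per gene, over the 8 libraries. They were AT5G46710 (distance 0.127), CRF6 (0.173) and AT2G40700 (0.175), where the median distance of all these genes was 0.786. AT5G46710, which overlaps AT5G46700, lay at 7.40 ± 0.389 FPKM in WT and 22.3 ± 4.34 FPKM in amiR-SEAP1, and like AOX1A it was higher in the AI than in the FLW libraries of amiR-SEAP1. AT2G40700 lay at 13.1 ± 1.34 and 33.99 ± 0.680 FPKM. NDB4, the other member whose profile spanned at least 1 on this scale, was nearest to DCP2 (0.070), a gene of mRNA decapping, AT3G54910 (0.078) and EMB2423 (0.086), with a median of 0.458. DCP2 lay at 14.4 ± 0.827 and 26.6 ± 0.027 FPKM. The 8 libraries are 4 samples, so these distances describe which genes separate the genotypes by a like amount on this scale. The scale shrinks the difference of NDB4, whose FPKM ratio was 3.16 against 1.85 for DCP2.

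**Figure D5:**
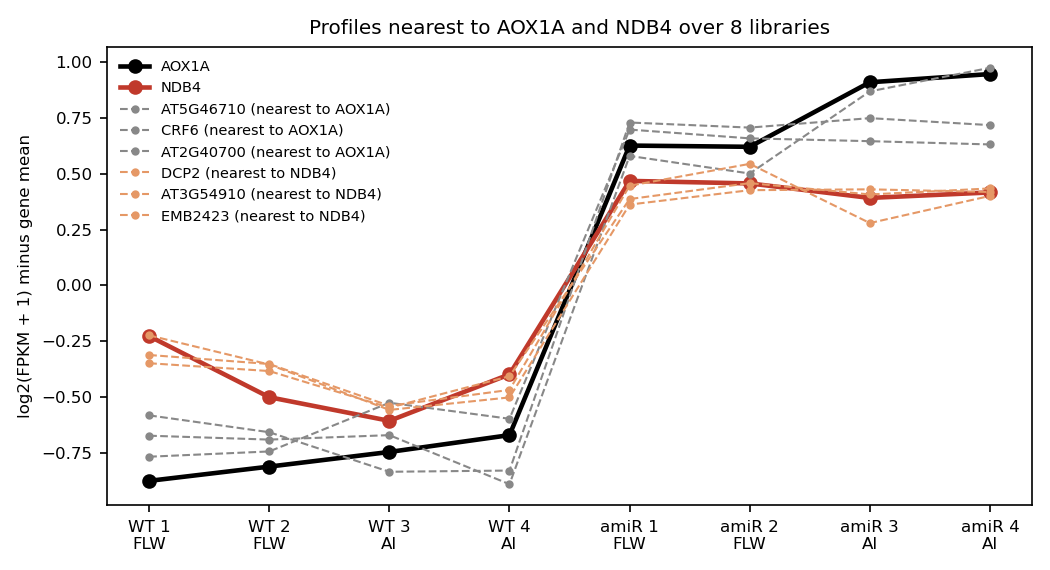
log2(FPKM + 1) minus the mean of each gene (y axis) in the 8 libraries (x axis), for AOX1A (black), NDB4 (red) and the 3 genes nearest to each (dashed grey and orange); lines join the values of a gene and imply no order. All 8 genes step up between the WT and the amiR-SEAP1 libraries, AOX1A from 13.97 to 16.3 FPKM up to 41.2 to 51.9 FPKM.

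Markers of other floral tissues were set beside these values. Of 14 mature pollen genes 0 passed, but 12 were called lower with the set term, 12 with the replicate block and 5 with independent libraries. In these fits 1575, 2306 and 975 of all 20743 genes were called lower. All 14 had a log2 difference below 0 and 8 lay lower without overlap, where 9.56% of all genes did, with a median of -0.58 in FLW and -0.27 in AI. Their summed level was 1744 to 2955 FPKM in WT and 1477 to 2062 FPKM in amiR-SEAP1. ADF7, an actin-depolymerising factor gene of pollen, went from 49.3 ± 4.35 to 34.0 ± 0.871 FPKM. AOX1B, with -0.67 in FLW and -0.47 in AI, had the same sign and order as these medians. Of 12 tapetum genes 11 were tested, and their medians were -0.42 in FLW and 0.81 in AI (summed 529 to 784 and 581 to 921 FPKM), the signs seen for AOX1C. The 13 photosynthesis genes had medians of 0.03 and 0.14 (summed 14856 to 18551 and 16540 to 19118 FPKM), against -0.003 and 0.058 over all tested genes. NDA1 lay higher in both sets, by 0.47 and 0.88. No marker of these lists was at 0 in any library. The part of tissue makeup in the values of AOX1B, AOX1C and NDA1 was not tested.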

How the data were processed

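Each mRNA file holds gene-level FPKM that the authors deposited. HISAT2 and the build TAIR10 appear in the submitters' processing notes. Which program made the FPKM, on which annotation and with what strand setting was not given in the sources used here, nor was read depth. The 4 small RNA libraries were not used here. Genotype and replicate number came from the titles and the header set from the file headers. Whether replicates are separate plants is not in the labels, so p-values measure only how these samples vary, and that variation may be technical.

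The 20743 genes averaging 1 FPKM or more over 8 libraries were tested with limma 3.58.1 (R 4.3.3) on log2(FPKM + 1), using a trend of variance on mean, a within-pair correlation of 0.906 (a pair is a genotype's libraries in one set), and Benjamini-Hochberg adjustment at an FDR of 0.05. The set comparison added a term for header set (correlation 0.700). Adjusted p-values are from this limma fit unless another is named. Tested on simulated data, this fit made more false calls than an FDR of 0.05 allows, the fits with a set term, a replicate block or independent libraries made many more, and those on pair means came closest to it. In such data adjusted p-values are too small, least so with pair means. The simulated data gave every gene the same amount of noise. They also held no set difference shared by the genotypes, which these libraries have. How far the adjusted p-values given here are off, and in which fit, was therefore not tested. The members and lists were chosen with earlier results of these data known. Of the gene IDs, 28932 matched the RefSeq table of assembly TAIR10.1, used for symbols, neighbours and overlaps. Named genes that overlap another gene there also include NDB3, PUMP1, SDH3-1, AT1G16700, AT1G15120, AT5G25450, AT3G54910 and EMB2423. Their reads may be mixed as well.

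Named genes are the 10 members, the 3 genes of each pathway list with the smallest p, and the 3 nearest profiles of each member whose log2(FPKM + 1) spans at least 1. NAC017, BCS1, AT2G21640, ADF7, LFY and PI were chosen after their values were seen. Deviations from group means correlated between same-numbered WT and amiR-SEAP1 libraries (r = 0.398 to 0.430), but so did the other number of the same set (r = 0.395 to 0.430), and 2 of 4 WT libraries matched their own number best. The numbers were therefore taken as matched between the genotypes only through the header set. The limma fit between the genotypes with the within-pair correlation had no term for the set, so it did not use this matching. Set differences shared by the genotypes were not removed in it. The fits with a set term or with the replicate number as a block did use the matching. Alternatives changed the dependence of libraries, the terms, the pseudocount, the filter, the scaling and the libraries. Pair means with a set term, single sets and median scaling were chosen after seeing the data.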

Additional observations from a re-analysis of the deposited data

Results flagged for a closer look

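AOX1C differed in opposite directions in the header sets, with every amiR-SEAP1 library below every WT library in FLW (log2 difference -0.32) and above in AI (0.22). NDB1 did the reverse, with 0.12 in FLW and -0.076 in AI. For both genes the difference between the sets was not tested. AOX2 was listed at 0 in 3 amiR-SEAP1 libraries and at 0.143 FPKM in replicate 4, which stands far from the others of its group. Since the other 3 are at 0, any value above 0 would have stood apart.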

How the results depend on the processing

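Over all genes, 48 were higher and 17 lower in amiR-SEAP1 with the pair correlation. The counts were 1556 and 975 with every library independent, 1543 and 1575 with a term for the set, and 2852 and 2306 with the replicate number as a block. They were 0 and 0 with pair means, with or without a term for the set. Without a filter they were 142 and 71, and with a filter at 5 FPKM 13 and 3. Leaving out 1 library gave 13 to 21 higher and 1 to 4 lower. Respiratory list genes were 0 and 0, but 2 fell with the set term, and 2 rose and 9 fell with the replicate block. Between the sets, 4646 and 5451 genes passed with every library independent. AOX1A kept its direction in all 18 alternatives (1.52 to 1.61) and passed in 16, failing with pair means and with pair means plus the set term (adjusted p = 0.469 and 0.269). AOX1B, NDA1 and NDB4 kept their direction and passed in 3 each, those with independent libraries, the set term or the replicate block, which changed no other member's call. AOX1C ranged from -0.093 to 0.0030 when 1 library was left out, turning above 0 without WT replicate 2, and NDB1 to -0.0090 with median scaling, and the cause was not tested. AOX1D and AOX2 lay below the filter of 1 FPKM, so no alternatives are given for them.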
